A study of Mus musculus with 2 samples.

Results

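Partly methylated CpG-dense DNA was examined in the mouse hippocampus, in windows of 500 bp that hold many CpGs and are neither open nor fully methylated. Members were chosen by their measured methylation level: a window (bin) was a member if it lay on an autosome, held at least 15 CpG cytosines with 10 or more reads in both libraries, and had a mean methylation level of the 2 libraries from 20% to under 80%. This gave 4387 bins out of 37606 dense bins, those holding 15 or more analysed cytosines (11.7%), and of all 149544 bins with at least 5. The 4387 bins held 95088 cytosines. There were 2 libraries of C57BL/6 hippocampal DNA, made by target capture and bisulfite sequencing. The control library came from an untreated mouse or mice. The ATO library came from offspring exposed to 5000 ppb arsenic trioxide in drinking water, from before the mating of the parents, through lactation and then after weaning until the experiment ended. The labels give neither sex, age nor whether a library was pooled, and with 1 library per group every difference compares 2 libraries and has no replicate check. The tissue label could not be checked against expressed markers in DNA methylation tables.

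CpG-dense DNA, as in CpG islands, is usually free of methylation when it lies at active or poised promoters, and the DNA around it is usually methylated. An intermediate level can therefore arise in several ways. Imprinted control regions carry methylation on 1 parental copy, other regions differ between cells, and a window laid across the edge of an island averages an open and a methylated part. A bulk level does not tell apart which molecules or which cells carry the methylation.

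The members were divided by how even they were inside. For each cytosine the level was averaged over the libraries, and a bin was called even when the SD of these values was at most 12 points. Of the members 817 (18.6%) were even. The other bins were called stepped when a single cut along the bin, with at least 3 cytosines on each side, explained at least 50% of the variance. This was taken as crossing an edge, though not necessarily that of an unmethylated island. There were 1848 stepped bins (42.1%) and 1722 mixed bins (39.3%) that were uneven without such a step. The median SD inside was 9.99 points in even, 21.1 in stepped and 16.5 in mixed bins. These values chose the classes and are given as a description.

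The sequences of 5 promoters that lie in even bins show what this DNA looks like. Gene names were attached by sequence: the promoter sequences of RefSeq (GRCm38.p6, 300 bases each) were placed where the spacing of their CpGs matched the CpG positions in the tables, whose build is mm9. Each line gives the 250 bases before the annotated start, 5′ to 3′ on the strand of the gene, and capitals mark the CpGs analysed in both libraries. The first 4 genes, known to be imprinted, are shown because their promoters held intermediate levels in both libraries, and Gm30448 because its bin was the only even bin with a placed promoter that was called different.
Peg3: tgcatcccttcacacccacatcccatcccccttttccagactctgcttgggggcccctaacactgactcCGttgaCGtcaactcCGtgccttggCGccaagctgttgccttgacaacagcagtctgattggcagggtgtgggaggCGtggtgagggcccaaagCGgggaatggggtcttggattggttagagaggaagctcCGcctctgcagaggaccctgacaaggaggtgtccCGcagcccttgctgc
Nap1l5: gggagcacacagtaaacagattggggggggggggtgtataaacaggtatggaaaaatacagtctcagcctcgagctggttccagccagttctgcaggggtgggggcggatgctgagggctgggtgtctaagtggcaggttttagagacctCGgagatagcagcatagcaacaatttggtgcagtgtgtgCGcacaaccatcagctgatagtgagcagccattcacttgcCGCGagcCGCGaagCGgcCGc
Plagl1: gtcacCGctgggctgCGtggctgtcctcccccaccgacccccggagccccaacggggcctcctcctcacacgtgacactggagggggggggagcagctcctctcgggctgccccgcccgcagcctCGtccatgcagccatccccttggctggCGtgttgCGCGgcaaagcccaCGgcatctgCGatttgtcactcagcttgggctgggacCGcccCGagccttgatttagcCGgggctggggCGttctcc
Nnat: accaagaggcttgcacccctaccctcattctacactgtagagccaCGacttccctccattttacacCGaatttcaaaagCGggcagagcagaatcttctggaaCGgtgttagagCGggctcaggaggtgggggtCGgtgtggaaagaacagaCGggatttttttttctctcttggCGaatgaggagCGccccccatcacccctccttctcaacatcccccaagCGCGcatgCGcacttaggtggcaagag
Gm30448: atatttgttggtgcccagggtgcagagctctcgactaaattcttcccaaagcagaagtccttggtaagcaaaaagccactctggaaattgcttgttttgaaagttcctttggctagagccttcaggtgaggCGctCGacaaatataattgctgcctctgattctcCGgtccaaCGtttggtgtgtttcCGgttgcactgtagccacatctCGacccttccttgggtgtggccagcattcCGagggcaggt

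All CpGs of these 5 promoters matched, 13 of 13 for Peg3, 17 of 17 for Nap1l5, 26 of 26 for Plagl1, 17 of 17 for Nnat and 10 of 10 for Gm30448. Peg3 (minus strand, bin at chromosome 7, 6683001 to 6683500) encodes a zinc finger protein made from the paternal copy. The 8 analysed cytosines of the printed stretch ranged from 39.3% to 60% in the control, with a median of 52.3%, and from 39.7% to 71.4% with ATO, with a median of 51.7%. The ranges overlapped, and the ATO range reached higher. Nap1l5 (minus strand, chromosome 6, 58857001 to 58857500), a nucleosome assembly protein gene, read 52.1% in the control library and 41.4% with ATO over 9 cytosines, of which 8 were lower in the ATO library. Plagl1 (plus strand, chromosome 10, 12810501 to 12811000), a zinc finger gene that restrains growth, read 63.7% in the control library and 34.6% with ATO over 12 cytosines, and all 12 were lower. Its mean coverage there was 22.5 and 29.7 reads, and its whole bin, with 49 cytosines, read 50.9% and 35.9% and was not called (Fisher's exact test, adjusted p = 1). Nnat (plus strand, chromosome 2, 157385501 to 157386000), which encodes neuronatin, went the other way in the printed stretch, with 41.6% in the control, 58.0% in the ATO library and 9 of 12 cytosines higher. The other 20 cytosines of the Nnat bin read 57.1% and 50.4%, and the bin as a whole read 52.8% in both libraries. Gm30448 (minus strand, chromosome 9, 114762501 to 114763000), a predicted gene, read 82.0% in the control library and 55.8% with ATO over 7 cytosines, of which 6 were lower. Its bin, with 17 cytosines, fell from 77.3% to 42.8% (Fisher's exact test, adjusted p = 0.00694).

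Levels were spread differently in the classes. Even bins were most frequent near the ends of the range, with 385 bins between 20 and 40%, 171 between 40 and 60% and 261 between 60 and 80%. The SD limit is harder to meet in the middle, where counting error and the room for cytosines to vary are largest. The part of this in the lower middle count was not tested. Stepped bins were most frequent at the low end, with 956, 517 and 375 bins in the same ranges, and mixed bins were spread almost evenly, with 578, 532 and 612. Even bins had a median of 18 cytosines and up to 136, stepped bins a median of 18 and up to 112. Median coverage per cytosine was 51.9 reads in the control library and 58.1 with ATO for even bins, 50.2 and 55.7 for stepped bins and 47.1 and 52.0 for mixed bins.

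**Figure D1:**
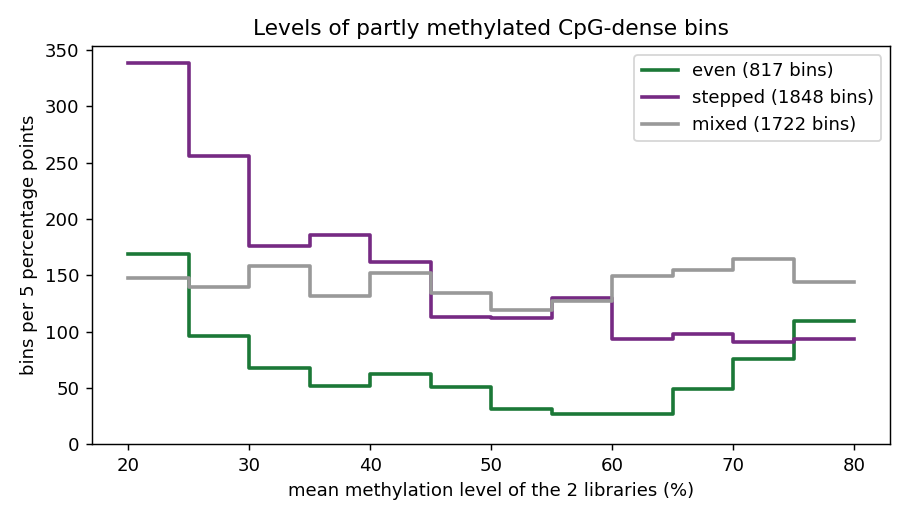
Number of member bins per 5 percentage points (vertical axis) by mean methylation level of the 2 libraries in % (horizontal axis), for the 817 even, 1848 stepped and 1722 mixed bins. The even bins are fewest in the middle of the range, where the SD limit is harder to meet, and the stepped bins are most frequent between 20 and 30%.

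All 3 classes were lower on average in the ATO library. Even bins averaged 48.0% in the control library and 44.5% with ATO, a difference (ATO minus control, in percentage points throughout) of -3.50 (95% counting interval -4.07 to -2.94). Stepped bins averaged 44.0% and 41.6%, a difference of -2.46 (-2.85 to -2.07), and mixed bins 51.6% and 48.7%, a difference of -2.96 (-3.38 to -2.53). The intervals cover read counting error only, with calls divided for shared fragments. Lower in the ATO library were 500 of 817 even bins (61.2%), 1168 of 1848 stepped bins (63.2%) and 1054 of 1722 mixed bins (61.2%). Among all 149544 bins tested 57.7% were lower and the mean difference was -1.66, and among the 54254 partly methylated bins with 5 to 14 cytosines 62.5% were lower and the mean was -3.35. Stepped bins thus differed from even bins by 1.04 points less loss, and this gap did not hold under other settings. It became 0.23 with bins shifted by 250 bp and changed sign with an SD limit of 8 (-1.81), with at least 25 cytosines per bin (-0.917) and with a coverage minimum of 30 (-0.327). The mean of even bins also moved, to -0.738 with an SD limit of 8 and -0.683 with at least 25 cytosines, whose counting intervals (half-widths 1.19 and 1.27) include 0, and to -1.81 with a coverage minimum of 30. These 2 libraries therefore give no stable order of the class means.

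The differences were spread more widely in even bins. The SD over bins was 13.4 points for even, 9.33 for stepped and 9.65 for mixed bins. Read counting error on divided sums would give an SD of 8.28 for even, 8.55 for stepped and 9.0 for mixed bins. The counting value is too wide for uneven bins, because it treats their open and methylated cytosines as if all stood at the bin's mean level. Differences of at least 20 points were found in 122 even bins (14.9%), 93 stepped bins (5.03%) and 100 mixed bins (5.81%). Even bins ranged from -52.1 to 52.4 points and stepped bins from -40.9 to 44.8. Both tails were wider in the even class.

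**Figure D2:**
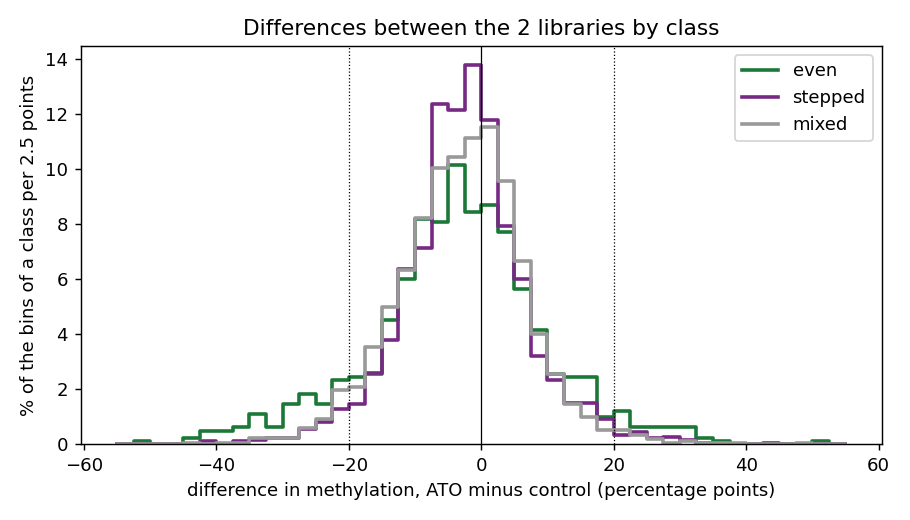
Share of the bins of a class (vertical axis, % per 2.5 points) by the difference ATO minus control in percentage points (horizontal axis), for even, stepped and mixed bins, with dotted lines at -20 and 20. The even bins have the flattest curve and the heaviest tails, with 14.9% of bins beyond the dotted lines against 5.03% of stepped bins.

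Bins were compared one by one by Fisher's exact test, two-sided, on divided sums, with Benjamini-Hochberg adjustment over all 149544 bins, and called at an adjusted p under 0.05 and a difference of at least 20 points. Over all bins tested 1.83% were called, 1.19% lower and 0.643% higher in the ATO library. Of the even bins 57 were called (6.98%, exact binomial 95% interval 5.33 to 8.95), 37 lower and 20 higher. Of the stepped bins 28 were called (1.52%, 1.01 to 2.18), 17 lower and 11 higher, and of the mixed bins 28 (1.63%, 1.08 to 2.34), 18 lower and 10 higher. These intervals treat bins as independent trials, which neighbouring bins are not, and cover no variation between animals. Over all dense bins 0.316% were called, and over partly methylated bins with 5 to 14 cytosines 4.68%. The stepped and mixed shares were thus near that of all bins but below that of the sparser partly methylated bins. The even share was above both. A bin that is almost open or almost fully methylated has little room for a difference of 20 points. Members were chosen by the levels of the same 2 libraries, so all bins and all dense bins are not matched to them in level. Losses outnumbered gains in each class, as they did over all bins.

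The contrast was largest in the middle of the range. The level of a bin is the mean of the same 2 values whose difference is called, so the largest differences can only fall there. Evenness was judged on cytosine levels averaged over the libraries, so a bin that shifted as a block could be even. How far these choices shape the shares was not tested. Between 40 and 60%, 27 of 171 even bins were called (15.8%, 10.7 to 22.1), against 11 of 517 stepped bins (2.13%) and 11 of 532 mixed bins (2.07%). Between 60 and 80% the shares were 9.20% of even, 3.20% of stepped and 1.31% of mixed bins. Between 20 and 40% the even bins gave 6 of 385 (1.56%) and mixed bins the same 1.56%, with 0.523% of stepped bins. The partly methylated bins with 5 to 14 cytosines gave 2.45% between 20 and 40%, more than the even bins there. They gave 6.83% between 40 and 60% and 4.56% between 60 and 80%, less than the even bins. Median divided counts were 63 in the control library and 70 with ATO for even bins, the same for stepped bins, and 58 and 64 for mixed bins. The classes were matched here by bin mean and not by the level of their cytosines. A stepped bin near the middle can average a low and a high side. The test also treats the calls of an uneven bin as if all stood at its mean level. The part of this in the contrast was not tested. The even share fell with the number of cytosines, from 9.38% at 15 to 17 cytosines to 7.06% at 18 to 24 and 1.69% (3 of 178 bins) at 25 or more. The last was not above the 1.83% of all bins. Stepped bins gave 2.25%, 0.896% and 0.687% in the same groups. The even share was above the stepped share in 16 of 16 alternative settings. These settings use the same 2 libraries and largely the same bins, so they are not separate readings. With at least 25 cytosines the exact intervals of the even and stepped shares overlapped (0.349 to 4.85 and 0.0833 to 2.46).

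**Figure D3:**
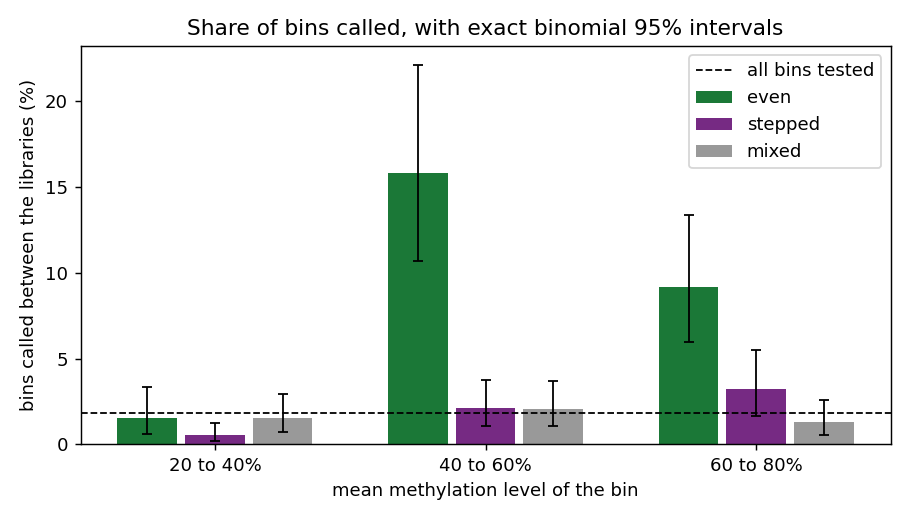
Share of bins called different between the libraries (vertical axis, %) by mean level of the bin (horizontal axis) for even, stepped and mixed bins, with exact binomial 95% intervals as bars and the share of all bins tested, 1.83%, as a dashed line. Even bins stand at 15.8% between 40 and 60% and at 9.20% between 60 and 80%, while most stepped and mixed bars lie near the dashed line. Level and call come from the same 2 libraries, and the intervals treat bins as independent trials.

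Even bins also had the highest share of called cytosines, by a smaller factor. Tested one by one (Fisher's exact test, adjusted over 2271297 autosomal cytosines, called at an adjusted p under 0.05 and at least 25 points), 2.68% of all cytosines were called, 1.75% lower and 0.928% higher. In even bins 1431 of 17844 were called (8.02%), 934 lower and 497 higher. In stepped bins the count was 1554 of 37657 (4.13%) and in mixed bins 1683 of 39587 (4.25%), so these shares were above that of all cytosines, unlike the bin shares. The direction of the difference was shared by more cytosines in even bins. The median share of cytosines that went the way of their bin was 75% in even, 63.5% in stepped and 67.8% in mixed bins, and among bins that differed by at least 10 points it was 93.5%, 83.3% and 86.7%. The SD of the cytosines' differences inside a bin was alike, with medians of 11.5 points in even, 11.3 in stepped and 12.8 in mixed bins. Cytosines of a bin share sequenced fragments, so they are not independent readings. All analysed cytosines moved 1 way in 107 even bins (13.1%), 60 stepped bins (3.25%) and 53 mixed bins (3.08%). The SD of levels inside even bins was alike in the libraries, with medians of 11.2 points in the control library and 11.4 with ATO.

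The strands of a bin are read from different molecules, but from the same 2 libraries. Their agreement is therefore no check of the difference between the groups. Most of the capture was of the reverse strand, and 8.71% of cytosines in even bins were on the forward strand. In the 88 even bins with at least 5 analysed cytosines on each strand, the sign of the difference was the same on the strands in 72 (81.8%). It was the same in 136 of 220 stepped bins (61.8%) and 182 of 264 mixed bins (68.9%). Even bins were chosen by a low SD over cytosines of both strands, and the part of this in the shares was not tested. The mean difference of the 88 even bins was -0.984 on the forward and -0.949 on the reverse strand. It was -3.50 for all even bins, so the 88 are not typical of the class.

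The called even bins with the largest losses each shifted as a block. On chromosome 17, 27552001 to 27552500, the level was 85.2% (exact 95% interval 68.7 to 94.0) in the control library and 33.1% (20 to 49) with ATO (Fisher's exact test, adjusted p = 0.000615), and all 19 cytosines were lower. Its coverage was 29.9 and 35.4 reads. In RefSeq order the stretch between the nearest placed promoters, Gm10505 and Hmga1, also holds Gm35007 and Grm4, the last a metabotropic glutamate receptor gene. On chromosome 5, 106221501 to 106222000, between the placed promoters of Lrrc8d (a subunit of volume-regulated anion channels) and Zfp326, the level was 62.5% in the control library and 19.8% with ATO (exact test, adjusted p = 3.16e-05), with 15 of 15 cytosines lower. On chromosome 1, 91647501 to 91648000, between those of Agap1 and Gbx2, a homeobox gene, it was 64.4% and 21.8% (exact test, adjusted p = 0.000161), with 23 of 23 lower. The nearest unmethylated dense bin was 60500 bp or more from each of these 3 bins.

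The gains were of like size. On chromosome 6, 113907501 to 113908000, the level rose from 25.8% (17.5 to 36.3) (control) to 78.2% (69.0 to 86.8) with ATO (exact test, adjusted p = 2.17e-09; coverages 81.1 and 79.8), with 17 of 17 cytosines higher. This bin lay between a pair of placed promoters of Atp2b2, a plasma membrane calcium pump of neurons and hair cells, and thus inside the gene. On chromosome 5, 134998501 to 134999000, between the placed promoters of Gtf2ird1 and Clip2, the level was 57.8% in the control library and 94.9% with ATO (exact test, adjusted p = 0.000185), and all 28 cytosines were higher. On chromosome 1, 156876001 to 156876500, it was 24.5% and 58.0% (exact test, adjusted p = 0.000994), with 16 of 17 higher. In RefSeq order the stretch around this bin holds 16 genes, among them Cacna1e, a calcium channel gene. The level intervals of the libraries did not overlap in any of these 6 even bins. The bins were chosen as the largest called differences on the same counts. Neither the intervals nor the shared direction of their cytosines is therefore a separate check.

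Runs of neighbouring even bins were few. With at most 1 bin between neighbours, 705 even bins stood alone, 32 runs held 2 bins and 12 runs held 3 or more, with 48 bins in all. Of these 48 bins 25 (52.1%) lay between 40 and 60%, against 16.7% of single even bins. In runs of 3 or more the mean was 39.0% in the control library and 40.5% with ATO, a difference of 1.5, and 0 of 48 bins were called. The SD of their differences was 8.62 points, near the 8.67 that counting error would give. Single even bins had an SD of 13.6 against 8.23 from counting, a mean difference of -3.97 and 52 called of 705 (7.38%). Bins in runs held more cytosines, with a median of 26.5 against 17, and of all even bins with 25 or more cytosines 1.69% were called. The difference between runs and single bins was not tested. Runs and single bins stood at median control coverages of 47.7 and 51.9 reads.

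Most of the 8 longest runs lay in stretches where RefSeq order places imprinted genes. At Gnas, an imprinted gene for a G protein subunit with several promoters, 3 runs of 5 bins lay on chromosome 2. The run from 174109001 to 174112000 averaged 42.1% in the control library and 40.3% with ATO, that from 174124001 to 174126500 38.3% and 42.4%, and that from 174152501 to 174155000 41.6% and 37.7%. Inside these runs the bins went both ways. In the last run the first bin went from 38.3% in the control to 52.3% in the ATO library and the next from 54.8% to 38.5%, at coverages between 23.1 and 26.6 reads, and neither was called. The run of 4 bins at Peg3 and Usp29 (chromosome 7, 6682001 to 6684000) averaged 44.9% and 45.4%, with bins from 37.5% to 48.3% in the control and from 36.1% to 60.6% with ATO.

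A run of 4 bins on chromosome 6, 4697001 to 4699500, between the placed promoters of Casd1 and Ppp1r9a, averaged 47.1% in the control library and 53.7% with ATO, and all 4 bins were higher. In RefSeq order this stretch also holds Sgce and Peg10, a pair of imprinted neighbours. On chromosome 7, 150645001 to 150647000, a run of 4 bins averaged 37.0% and 28.3%, with 3 of 4 bins lower. It lay between the placed promoters of Kcnq1ot1 and Phlda2, a stretch that also holds Cdkn1c, an imprinted inhibitor of cell division. The run of 4 on chromosome 15, 72639501 to 72641500, averaged 45.1% and 49.3%, with 3 of 4 bins higher. It lay in a long stretch of 34 genes that includes Trappc9, Kcnk9 and Peg13, an imprinted noncoding RNA gene. The remaining run, on chromosome 17 from 39980001 to 39983000, was unlike the others. It averaged 18.7% in the control library and 23.1% with ATO at 1342 and 1521 reads per cytosine, far above the medians of 49.3 and 54.8 of all members. All 5 of its bins were higher in the ATO library, by 4.12 to 4.96 points. These 5 bins, with a mean difference of 4.39, are counted in the mean of the 48 bins in runs of 3 or more. None reached the 20 points of a call. The adjusted p of Fisher's exact test was 0.000996, 0.0943, 0.0516, 0.019 and 0.133 along the run.

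**Figure D4:**
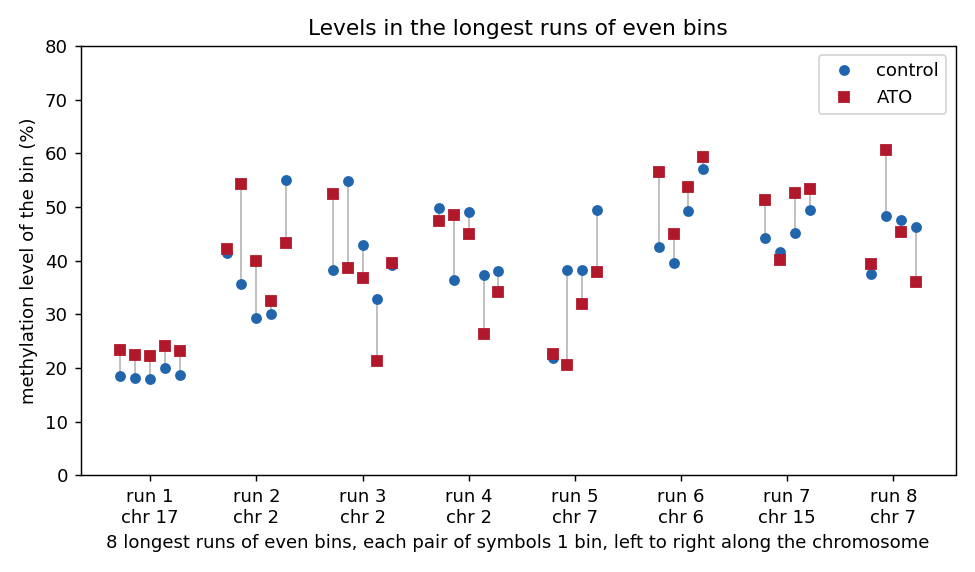
Methylation level in % (vertical axis) of each bin in the 8 longest runs of even bins (horizontal axis, run and chromosome), with circles for the control and squares for the ATO library joined by a line. Runs 2, 3 and 4 are those at Gnas, run 5 is the one between Kcnq1ot1 and Phlda2, run 6 that between Casd1 and Ppp1r9a and run 8 that at Peg3; outside run 1, with squares at 22.3% to 24.2%, and run 6, in both of which all squares lie above the circles, the runs hold bins that differ both ways.

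Promoters were rarer in members than in unmethylated dense DNA. A placed promoter overlapped 42 even bins (5.14%), 161 stepped bins (8.71%) and 106 mixed bins (6.16%), against 36.8% of the 30151 dense bins under 20% and 2.84% of the 3068 dense bins at 80% and above. Of 27 imprinted genes listed, 19 had a placed promoter, 17 of these in a dense bin. The promoters of 10 of them were in even bins, 2 were in mixed bins (Mkrn3 was in both) and 0 in stepped bins. The others were outside the range, such as Igf2r at 14.5% in the control library and 14.1% with ATO and Ndn at 14.8% and 24%. The 12 even bins at imprinted promoters averaged 45.2% in the control library and 43.9% with ATO, with 7 lower and 5 higher. The SD of their differences was 10.5 points against 9.13 from counting error, and 0 were called. The share called was 6.98% of all even bins and 1.83% of all bins, so 12 bins are too few to read the 0 as stability. Levels of these 12 bins ran from 30.3% to 54.8% in the control and from 25.8% to 54.1% in the ATO library. Mest, a paternally expressed gene of the hydrolase family, read 45.5% and 54.1%, and Zrsr1, a retrogene of a splicing factor, 50% and 47.3%. Mcts2 read 41.7% and 50.4%, and Meg3, a long noncoding RNA, 42.9% and 38.9%. In a mixed bin Kcnq1ot1, the noncoding RNA of the Kcnq1 domain, read 38.9% and 49.0%.

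Genes of the germline, whose CpG-dense promoters are known to be methylated in body tissues, served as a further list. Of 9 named genes 7 had a placed promoter and 6 of these a dense bin. The 5 genes Dazl, Sycp3, Sycp1, Tex101 and Dpep3 stood at 80% and above and only Tdrd1 of this list was a member, in a mixed bin with 60.7% in the control library and 64.1% with ATO. Other even bins with a placed promoter included the zinc finger genes Zfp951 (39.7% and 42.8% in 1 bin, 40.2% and 32.1% in the next) and Zfp996 (28.1% and 25.9%) and Hopx (28.7% and 19.4%), a homeodomain-only gene. None of these was called.

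The motif TGCCGC, bound by the imprint-maintaining protein ZFP57 when its CpG is methylated, was searched on both strands of the 300-base promoters. It was found in 12 of 45 placed promoters of even bins (26.7%) and in 7 of the 13 on the imprinted list (53.8%). These 13 promoters belong to 10 genes. Gnas and Mest are entered more than once, and each Mest entry held the motif. The motif was found in 22% of all 13179 placed promoters and in 11.6% of the 31396 autosomal promoters. Among the printed stretches, the promoters of Nap1l5, Plagl1 and Nnat held it and that of Peg3 did not, each over its full 300 bases. A placed promoter has at least 8 CpGs, so it is richer in such letters than the average promoter.

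In stepped bins the step separated a low from a high side, and both were a little lower in the ATO library. Over the 1848 bins the low side averaged 26.1% in the control library and 23.9% with ATO, a difference of -2.23 (SD 9.73 over bins), and the high side 66.0% and 63.4%, a difference of -2.62 (SD 11.6). The low side was lower in 1129 bins (61.1%) and the high side in 1132 (61.3%). Sides near the limits differed least. The 895 low sides under 20% differed by -1.09 (SD 5.0) and the 409 high sides at 80% and above by -1.01 (SD 6.18). The 953 low sides between 20 and 80% differed by -3.31 (SD 12.6) and the 1439 such high sides by -3.08 (SD 12.7). Partly methylated sides thus had a spread closer to that of even bins than to that of whole stepped bins, and 12.5% of these low sides and 12.9% of these high sides differed by at least 20 points. Sides hold a median of 10 and 7 cytosines, fewer than an even bin.

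The place of the step was also compared. Located in each library alone, it fell between the same cytosines in 991 of 1848 bins (53.6%). In 852 bins it moved while keeping its direction, toward the high side in 472 and toward the low side in 380, with a median distance of 54.0 bp. In the other 5 it had opposite directions. The median height of the step was 39.1 points in the control library and 38.9 with ATO. Bins were chosen and aligned by a cut placed on these same levels, so a jump at the step is built in. Its height and sharpness are given as a description. Averaged over cytosines by distance, the level rose from 30.9% in the last 50 bp of the low side to 62.9% in the first 50 bp of the high side in the control, and from 28.2% to 60.5% in the ATO library. At each distance the ATO library was lower, with differences from -2.95 to -1.41 points.

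**Figure D5:**
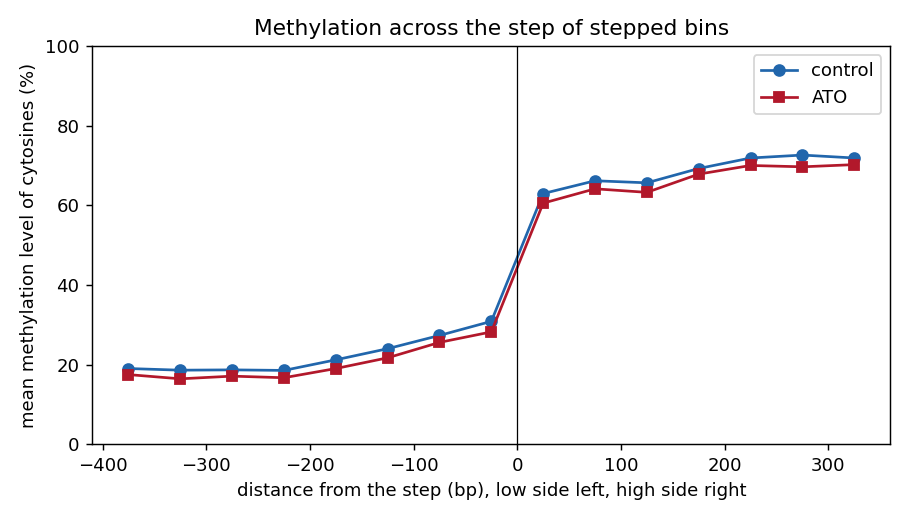
Mean methylation level of cytosines in % (vertical axis) by distance from the step in bp (horizontal axis, low side to the left) in the 1848 stepped bins, with circles for the control and squares for the ATO library. The curves run in parallel, with the ATO library below the control at every distance, at 28.2% against 30.9% just before the step and 60.5% against 62.9% just after it. The jump follows from aligning the bins at the cut that defined them.

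Single stepped and mixed bins could still differ strongly. The stepped bin on chromosome 9, 68640001 to 68640500, had 65.1% in the control library and 24.1% with ATO (Fisher's exact test, adjusted p = 7.96e-05), with 16 of 16 cytosines lower. In RefSeq order the stretch around it holds Rora, a nuclear receptor gene. On chromosome 10, 88085001 to 88085500, between the placed promoters of Mybpc1 and Gm4925, the level was 31.3% in the control library and 67.5% with ATO (exact test, adjusted p = 0.00365), with 13 of 15 cytosines higher. Of the called mixed bins, that on chromosome 5, 116412001 to 116412500, rose most, from 37.3% to 85.7% (exact test, adjusted p = 7.96e-05), with 16 of 16 cytosines higher. It lay between the placed promoters of Gm36185 and Prkab1, in a stretch that also holds Cit, a kinase of dividing cells. The called mixed bin with the largest loss, on chromosome 4, 127096501 to 127097000, fell from 68.7% to 30.1% (exact test, adjusted p = 0.0118) at coverages of 36.6 and 57.5 reads.

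Position followed the classes. An unmethylated dense bin (at least 15 cytosines, mean under 10%) lay within 2000 bp of 650 stepped bins (35.2%), 118 even bins (14.4%) and 282 mixed bins (16.4%). Among bins with both neighbours measured, 61.5% of 512 stepped bins had a neighbour under 20%, against 30.2% of 248 even and 25.5% of 521 mixed bins. Both neighbours were partly methylated for 58.1% of even, 18.9% of stepped and 52.8% of mixed bins. A neighbour under 20% on 1 side and one at 80% or above on the other was found for 97 stepped bins (18.9%). The same held for 2 even (0.806%) and 10 mixed bins (1.92%). Most stepped bins were thus not seen to pass from unmethylated to fully methylated neighbours. Even bins near unmethylated dense DNA averaged 36.3% in the control library and 36.4% with ATO, a difference of 0.0192 (SD 11.2), with 3 of 118 called (2.54%). The 699 even bins farther away averaged 49.9% and 45.8%, a difference of -4.10 (SD 13.7), with 54 called (7.73%). Stepped bins differed by -1.86 near and -2.79 far. The near bins were also the less methylated ones, and the part of level in this contrast was not tested.

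The lower level of the ATO library was seen along the genome. Even bins were lower on average on 19 of 19 autosomes, from -9.88 points on chromosome 16 to -0.961 on chromosome 15. Stepped bins were lower on 18, with the exception of chromosome 12 (0.579), and mixed bins on 17. Depth moved with the size of the difference. The 238 members with more than 3 times the median coverage of dense bins differed by -0.608 on average and 50% were lower, while the other 4149 differed by -2.98. Among even bins, 42 were this deep and differed by -1.20, and 775 were not and differed by -3.63. The part of depth in the mean difference was not tested.

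Bins close to the limits of the rule show that these divide a continuum. The even bins nearest to the SD limit had 11.995, 11.994 and 11.985 points, and the uneven bins nearest to it 12.001, 12.006 and 12.013. Within 1 point of the limit lay 232 even and 224 uneven bins. At the low end the 3 members nearest to a mean level of 20% had 18.7% and 21.3%, 12.5% and 27.6%, and 27.1% and 12.9% in the control and the ATO library, and the nearest bins outside 23.2% and 16.8%, 18.4% and 21.6%, and 20.2% and 19.8%. At the high end the nearest members had 77.0% and 83%, 81.4% and 78.6%, and 82.1% and 77.8%, and the nearest bins outside 81.1% and 78.9%, 80.6% and 79.5%, and 81% and 79.1%. With exactly 15 cytosines there were 831 members, and 1176 partly methylated bins held 14.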

How the data were processed

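Both tables list CpG cytosines by strand. Per the file headers, the deposited coverage is a raw count of reads per cytosine and the methylation values are percent of those reads. Per the submitters' processing notes, Bismark 0.19.0, Bowtie2, bcl2fastq and mm9 were used by the authors. How duplicates and trimming were handled is not given in the sources used here. The control library held 135987272 calls and the ATO library 147924810. Methylated counts were coverage times percent, rounded; 100% were whole within 0.005 points. Cytosines with at least 10 reads in both libraries were kept (2271297, 95.3% on the reverse strand, median coverage 41 and 45). A bin's level was its summed methylated calls over its summed coverage. For bin tests, and for the intervals of levels and mean differences, the sums were divided. The divisor was the most analysed cytosines found within any 300 bp of the bin, since 1 fragment can cover that many. These intervals cover counting error only. The exact binomial intervals of shares called treat bins as independent trials, and no interval covers variation between animals. The Fisher code was tested on simulated data.

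No mm9 genome or annotation was used. Of 31396 autosomal RefSeq promoters 15382 had at least 8 CpGs, and 13179 were placed at 1 site on their own chromosome, with at least 8 CpGs and 70% of them matched and at most 3 unmatched CpGs listed. Of neighbouring placed promoters 99.95% kept the order of the RefSeq table. Genes between promoters come from RefSeq order in GRCm38.p6. Clustered protocadherin promoters are not analysed here.

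Members, classes and lists were chosen with earlier results of these data known. Named were the 8 longest even runs, the bins of a class with the largest called losses and gains, the listed genes, and bins at the limits; the other genes and printed sequences were chosen after their values were seen. Python 3.11.15, numpy 2.4.6, pandas 2.3.3 and scipy 1.17.1 were used. The shares called per class under other settings, the level-weighted means and the leaving out of even runs were alternatives added after seeing the data.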

Additional observations from a re-analysis of the deposited data

How the results depend on the processing

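The mean differences of even, stepped and mixed bins were negative in all 14 alternatives each, but their sizes and their order did not hold, and for even bins the counting interval included 0 with an SD limit of 8 and with at least 25 cytosines. With an SD limit of 8 the mean of even bins was -0.738, the gap between stepped and even bins -1.81 and the share of mixed bins called 2.51%. With an SD limit of 16 the shares called were 4.99% of even, 0.716% of stepped and 0.828% of mixed bins. With steps that explain at least 70% of the variance stepped bins averaged -1.83 and 0.993% were called. With at least 10 cytosines mixed bins averaged -3.48, 651 bins were called, and the shares were 9.72%, 2.83% and 2.72%. With at least 25 cytosines the means were -0.683, -1.60 and -1.17, the gap was -0.917, 6 bins were called and the shares were 1.69%, 0.687% and 0.234%. At mean levels of 30 to 70% even bins averaged -4.52 with 12.3% called, and stepped bins -3.03. At a coverage minimum of 20 the means were -2.47, -1.98 and -2.44. At a minimum of 30 even bins averaged -1.81, mixed bins -1.55, the gap was -0.327 and 69 bins were called. With bins shifted by 250 bp even bins averaged -2.65 and the gap was 0.23. At an adjusted p under 0.01 (Fisher's exact test) 70 bins and 2804 cytosines were called, with shares of 4.41%, 0.866% and 1.05%. With all calls counted, 315 bins were called, with shares of 14.9%, 5.03% and 5.81%, as every member that differed by at least 20 points then passed. The cause of the other changes was not tested. The even share was above the stepped share in each of the 16 settings that gave both, all from the same 2 libraries. With no minimum difference 126 members were called, against 113. No paired analysis was possible because each group has 1 library.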

Other observations

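Members made up 11.7% of dense bins but their share differed between chromosomes, from 8.86% on chromosome 3 to 17.7% on chromosome 18. Chromosome 18 held 118 mixed, 48 stepped and 32 even bins. Among even bins with placed promoters, the predicted genes Gm32286 (38.0% in the control library and 20.2% with ATO, 20 of 20 cytosines lower) and Gm10421 (62.3% and 33.8%, 20 of 22 lower) had large losses that were not called (Fisher's exact test, adjusted p = 0.48 and 0.548). Ttc22 read 36.9% and 24%, with 31 of 33 cytosines lower, and was not called either (Fisher's exact test, adjusted p = 0.895). Other such bins rose without being called, as that of Gm41230 did (68.0% and 78.1%, 17 of 21 cytosines higher). The 42 even bins with a placed promoter averaged 47.2% and 43.1%.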
